A study of Mus musculus with 9 samples.

Results

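NF-kB is a family of transcription factors that switch on inflammatory, survival and immune genes, and the 10 genes described here are its subunits and the inhibitors that close the loop. The subunits are encoded by Nfkb1, Nfkb2, Rela, Relb and Rel. The inhibitors are the IkB proteins encoded by Nfkbia, Nfkbib and Nfkbie, the atypical nuclear IkB protein encoded by Nfkbiz, and the ubiquitin-editing enzyme A20 encoded by Tnfaip3. The 10 genes were chosen by symbol from the 54532 gene IDs counted, each symbol matched 1 Ensembl ID, and 10 of 10 passed the filter on low counts that left 17821 genes for testing.

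Messenger RNA was sequenced from the striatum, the input nucleus of the basal ganglia, in 9 mouse libraries. They fall into 3 groups of 3, called cGAS KO and STING KO after the gene knocked out, and WT for wild type. Both knockout lines were made with CRISPR-Cas9 on a C57BL/6J background, and the same background is given for WT. Ischemic stroke preceded the collection of the tissue according to the series' design text, so all 3 groups share the injury, and uninjured tissue was not analysed here. The sources used here do not give age, sex or time after the stroke, nor is it stated whether the 3 libraries of a group are separate animals, so a p-value here speaks only of how far these libraries spread. cGAS senses DNA in the cytosol and answers by making cGAMP, a small messenger, to which STING responds from the membrane of the endoplasmic reticulum.

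In resting cells the IkB proteins hold NF-kB dimers in the cytoplasm. A signal from a cytokine, Toll-like or other receptor activates the IkB kinase complex, which marks IkB for destruction and frees the dimers to enter the nucleus. Among the genes then transcribed are those of several inhibitors, Nfkbia and Tnfaip3 among them, which bring the response to an end. STING is known to activate NF-kB as well as the interferon pathway. In brain, NF-kB subunits are made by neurons, glia and vessel cells, and the activity is set largely by protein breakdown and localisation, which transcript counts do not show.

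Library totals ranged from 14129021 to 21286775 counts, so a floor of 3 counts was 0.141 to 0.212 counts per 1000000 of these totals. Levels are given as CPM, counts per 1000000 of the TMM-normalized library size. In each group 1 library stood apart: STING KO replicate 2, WT replicate 3 and cGAS KO replicate 2 held 2280, 4699 and 4723 genes with 1 to 9 counts, against 7096 to 7927 in the other 6. These 3 are referred to as of low complexity, a division made with the data known. Cgas was at 1.10, 0.377 and 0.262 CPM for cGAS KO and 1.40, 2.63 and 3.18 CPM for WT, and Sting1 was at 2.18, 1.05 and 1.84 CPM for STING KO and 4.06, 3.01 and 1.34 CPM for WT. The log2 fold change against WT was -2.01 for Cgas in its knockout (edgeR unadjusted p = 0.0104) and -0.73 for Sting1 in its own (unadjusted p = 0.177). Neither passed over all genes tested (edgeR adjusted p = 0.9999 for both). Sting1 was at 2.67, 1.66 and 2.75 CPM for cGAS KO, a log2 fold change of -0.48 in STING KO versus cGAS KO (edgeR unadjusted p = 0.365). Cgas was at -0.82 in STING KO versus WT (edgeR unadjusted p = 0.204). The Sting1 counts thus do not by themselves show the STING knockout, which is taken from the labels. A CRISPR edit can leave the transcript in place. Spiny neuron markers, which define the striatum, were detected for 9 of 9 genes, with summed levels from 3452 CPM in WT replicate 3 to 7642 CPM in cGAS KO replicate 3. Markers of blood neutrophils and monocytes passed the filter for 0 of 8 genes, with summed levels of 0 to 0.894 CPM, and Ly6g was at 0 in every library. Choroid plexus markers summed to 28.07 to 2733 CPM, the highest in WT replicate 1, with the next library at 449.1 CPM. Cortical neuron markers summed to 84.5 to 1127 CPM, the highest in WT replicate 3, with the next library at 617 CPM. WT replicate 3 thus had both the lowest spiny neuron sum, with the next library at 6115 CPM, and the highest cortical sum. These levels varied between libraries of a group, and their part in the results was not tested.

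NF-kB binds a short DNA sequence called the kB motif, which is often found in promoters of the genes it controls. RefSeq promoter windows on GRCm38.p6, each 300 bases long and reaching from 250 bases before to 50 bases after a start site, were found for 7 of the 10 genes; Nfkb1, Relb and Nfkbiz had none in the table used. The 10-base kB consensus, searched on both strands with overlapping matches allowed, was in a window of 5 of these 7 genes and of 9.55% of all 27025 genes in the table. Stretches of 30 bases around the match are shown for these 5 genes, because the feedback of NF-kB on its own subunits and inhibitors is known to run through such motifs. Each is written 5′ to 3′ on the strand of the gene, and capitals mark the match or, where 2 matches overlap, their union.
Nfkbia: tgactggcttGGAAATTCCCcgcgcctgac
Tnfaip3: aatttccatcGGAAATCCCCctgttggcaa
Nfkbie: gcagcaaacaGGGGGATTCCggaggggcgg
Nfkb2: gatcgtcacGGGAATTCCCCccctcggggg
Rel: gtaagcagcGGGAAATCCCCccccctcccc
They lie at chr12:55492657-55492686 (minus strand, match 29 bases before the start), chr10:19015403-19015432 (minus, 12 bases before), chr17:45555584-45555613 (plus, 106 bases before), chr19:46304689-46304718 (plus, 39 bases before) and chr11:23771041-23771070 (minus, 92 bases before). Tnfaip3 held another match 125 bases before the same start, and Nfkb2 another 11 bases before, with further matches in the windows of its other starts. In GENCODE M21 the Nfkb2 gene begins at 46304320, and the stretch shown for it also lies within an annotated transcript. The windows of Rela and Nfkbib held no match to these letters. Among the other pathway genes, 10 of 21 target genes and 6 of 13 other inhibitors in the table held a match, against 4 of 19 inputs and 3 of 21 kinases and adaptors. A match is a description of the letters, and binding was not measured here.

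Per length of exon, Nfkbia and Rela were the most abundant of the 10 transcripts. The mean level over 9 libraries was 16.2 CPM per kilobase for Nfkbia, 8.53 for Rela and 5.60 for Nfkbib, and this order held in 9 of 9 libraries. Nfkb1, the precursor of the p50 subunit, followed at 1.97 CPM per kilobase. Rel (1.5), Nfkbiz (1.31), Relb (1.13) and Nfkb2 (1.03) formed a group whose neighbours did not differ beyond their spread: Rel was above Nfkbiz in 4 of 9 libraries, Nfkbiz above Relb in 6 and Relb above Nfkb2 in 5. Tnfaip3 (0.779) and Nfkbie (0.418) were the lowest, and Nfkbie rested on only 6 to 36 counts per library. Rela made up a median of 61.1% of the summed per-kilobase level of the 5 subunits, with a range of 45.9% to 66.5% over the libraries. Nfkbia made up a median of 62.0% of that of the 5 inhibitors, with a range of 59.5% to 83.0%. The order and both shares depend on the union of annotated exons used as the length, which was 12061 bases for Nfkb1 and 3072 for Rela. Not divided by length, the mean level was 26.05 CPM for Nfkbia, 26.21 for Rela, 23.8 for Nfkb1 and 12.15 for Nfkbib. The lead of Nfkbia over Rela was thus not seen without the division by length.

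**Figure D1:**
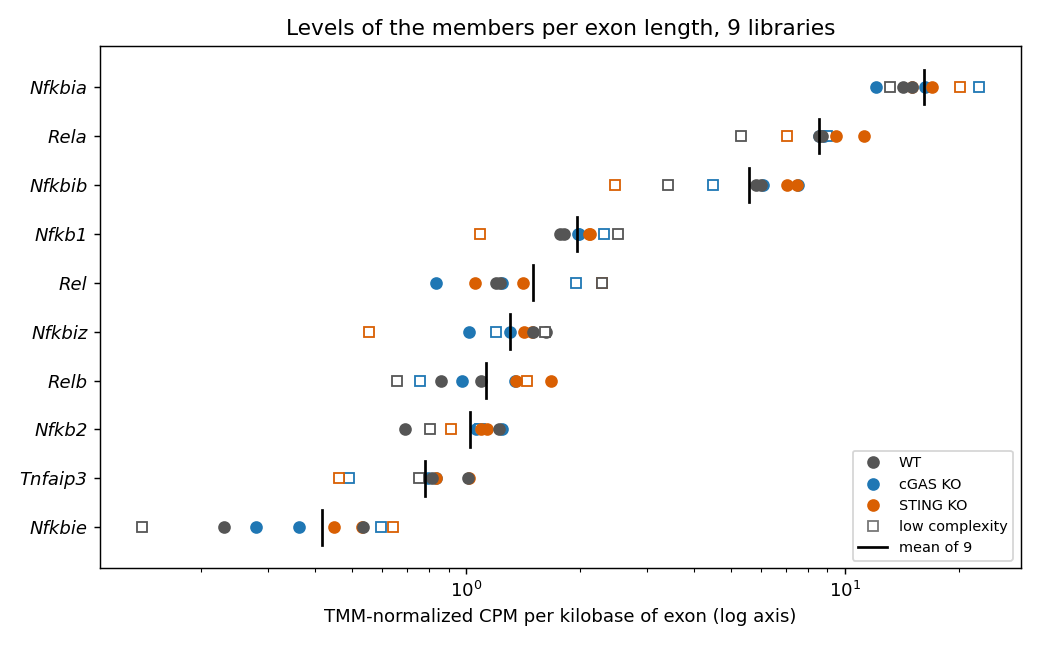
Level of each of the 10 genes in each of the 9 libraries, in TMM-normalized CPM per kilobase of exon on a log axis, with the mean of 9 libraries as a black line and libraries of low complexity as open squares. Nfkbia, Rela and Nfkbib lie to the right of the other 7 genes, with means of 16.2, 8.53 and 5.60.

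The comparison of each knockout with WT asks whether transcripts of the NF-kB system differ in libraries labelled as cGAS or STING knockout. Of the 10 genes, edgeR's quasi-likelihood test called 0 in cGAS KO versus WT, 0 in STING KO versus WT and 0 in STING KO versus cGAS KO at an adjusted p under 0.05, where 0% of all genes tested were called in each comparison. At an unadjusted p under 0.05 the count was 0 of 10 in cGAS KO versus WT (2.03% of all genes), 1 of 10 in STING KO versus WT (1.63%), namely Relb, and 0 of 10 in STING KO versus cGAS KO (1.45%). DESeq2 and limma-voom also called 0 of the 10 in each comparison. Libraries of the compared groups did not overlap for 1 of 10 genes in cGAS KO versus WT (8.0% of all genes), 2 of 10 in STING KO versus WT (7.07%) and 1 of 10 in STING KO versus cGAS KO (7.35%). Those genes were Nfkbiz in both comparisons with WT and Relb in both comparisons of STING KO. The median log2 fold change of the 10 genes was 0.23, 0.18 and 0.06 in the same order, beside -0.00969, -0.00439 and 0.0080 over all genes tested. Without the 3 libraries of low complexity, which leaves 2 against 2, the medians were -0.02, 0.23 and 0.22. In that fit edgeR called 0 of the 10 at an adjusted p under 0.05 in each comparison and 0 at an unadjusted p under 0.05, where 4.2%, 6.9% and 3.7% of all genes passed unadjusted. The groups of 2 then did not overlap for 3, 5 and 5 of the 10 genes, beside 29.4%, 47.7% and 31.9% of all genes.

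**Figure D2:**
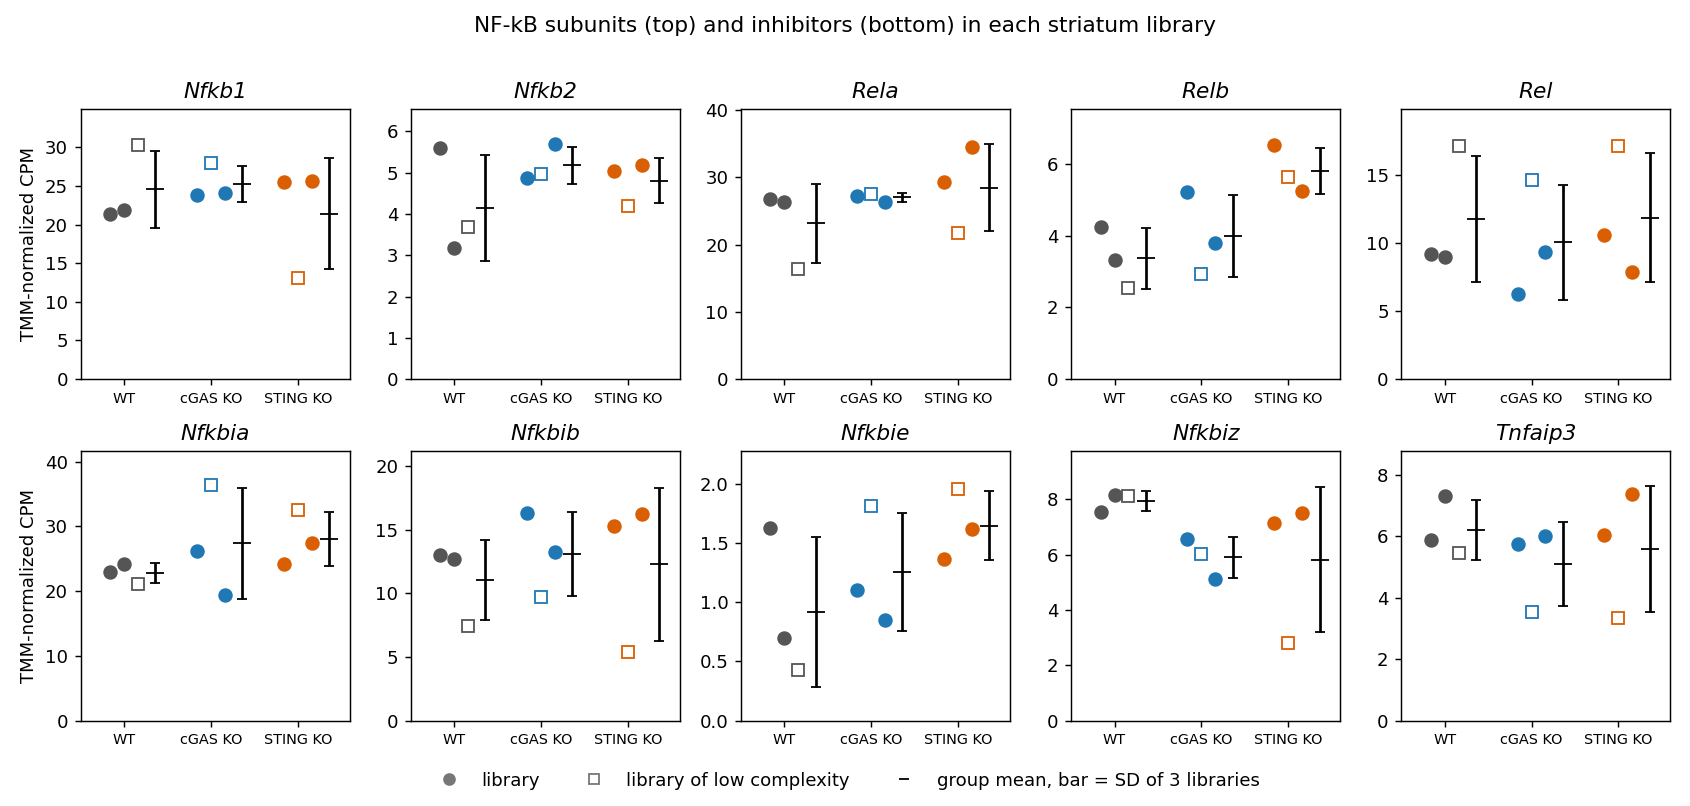
TMM-normalized CPM of the 5 subunits (top row) and the 5 inhibitors (bottom row) in every library, by group, with the group mean and SD of 3 libraries in black and libraries of low complexity as open squares. The 3 STING KO libraries of Relb (5.26 to 6.53 CPM) lie above the WT and cGAS KO libraries, and the 3 WT libraries of Nfkbiz (7.54 to 8.16 CPM) lie above all knockout libraries.

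Relb, the subunit that pairs with the product of Nfkb2 in the non-canonical branch of the pathway, was the gene with the lowest p of the 10. It lies on chromosome 7 (ENSMUSG00000002983, 19606217 to 19629438, minus strand, GRCm38). Its level was 6.53, 5.65 and 5.26 CPM for the STING KO libraries, 4.25, 3.33 and 2.55 CPM for WT and 5.22, 2.94 and 3.80 CPM for cGAS KO. All 3 STING KO libraries were above every other library, though the highest cGAS KO library, at 5.22, all but reached the lowest of them, at 5.26. The log2 fold change in STING KO was 0.78 against WT (SE 0.33, 95% interval 0.03 to 1.52, edgeR unadjusted p = 0.0420, adjusted p = 0.9999) and 0.54 against cGAS KO (SE 0.33, unadjusted p = 0.136). In cGAS KO versus WT it was 0.24 (SE 0.33), with -0.00293 without cGAS KO replicate 1 and 0.449 without WT replicate 1. Without the libraries of low complexity the difference from WT was 0.63 (SE 0.29, unadjusted p = 0.0563, edgeR adjusted p = 0.728). The adjusted p for Relb in STING KO versus WT ran from 0.0896 to 1 over the alternatives tried.

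The summed level of 8 microglia markers, all of which passed the filter, overlapped between the groups, at 260.8 to 358.9 CPM for STING KO, 241.1 to 367.7 for WT and 287.2 to 465 for cGAS KO. The 8 endothelial markers were at 282.6 to 288.6 CPM for STING KO, 311.3 to 355.1 for WT and 283.5 to 353.2 for cGAS KO. The endothelial sum was thus lower in each STING KO library than in each WT library. Of the single markers, Pecam1, Kdr and Slco1a4 were also lower in each, while Cldn5, Flt1, Cdh5, Ly6c1 and Esam overlapped. In this comparison 7.07% of all genes tested did not overlap. The part of the endothelial level in any of these results was not tested. In bulk tissue, fewer cells of a type and less RNA per cell cannot be told apart.

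Nfkb2 (ENSMUSG00000025225, chromosome 19, 46304320 to 46312385, plus strand) encodes the precursor p100, which is cut to the partner of Relb. It was at 5.04, 4.18 and 5.20 CPM for STING KO, 4.87, 4.98 and 5.70 CPM for cGAS KO and 5.60, 3.17 and 3.68 CPM for WT. The groups overlapped in each comparison, and the log2 fold change against WT was 0.32 for cGAS KO (SE 0.30) and 0.21 for STING KO (SE 0.30). These values were 0.609 and 0.50 without WT replicate 1, the highest WT library, and 0.142 and 0.044 without WT replicate 2, the lowest. Nfkb2 shares 299 exon bases with Psd, a gene on the opposite strand at 510 CPM on average, and the sources used here do not give the strand setting of the counting, so its reads cannot be fully told apart from those of Psd.

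Rela (ENSMUSG00000024927, chromosome 19, 5637483 to 5648130, plus strand) encodes p65, the subunit with the strongest activation domain, and is the partner of p50 in the canonical dimer. Its level was 27.2, 27.6 and 26.3 CPM for cGAS KO, 29.2, 21.7 and 34.5 CPM for STING KO and 26.8, 26.3 and 16.3 CPM for WT. The lowest values in STING KO and WT were those of the low-complexity libraries, and the groups overlapped. Against WT the log2 fold change was 0.22 for cGAS KO (SE 0.24, 95% interval -0.33 to 0.77) and 0.30 for STING KO (SE 0.24, 95% interval -0.25 to 0.84). Without the libraries of low complexity these values were 0.01 and 0.26. They were 0.0222 and 0.098 without WT replicate 3 alone, and the STING KO value was 0.135 without STING KO replicate 3 and 0.462 without STING KO replicate 2.

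Nfkb1 (ENSMUSG00000028163, chromosome 3, 135584655 to 135691547, minus strand) varied least of the 10 genes in the 6 libraries without low complexity, at 21.4 to 25.6 CPM with a coefficient of variation of 7.41%. The low-complexity libraries bracketed that range, at 13.1 CPM in STING KO replicate 2, 28.0 in cGAS KO replicate 2 and 30.4 in WT replicate 3. The log2 fold change of Nfkb1 for STING KO versus WT was -0.20 (SE 0.28) over 9 libraries and 0.24 (SE 0.15, edgeR unadjusted p = 0.141) over 6. In cGAS KO versus WT it was 0.04 (SE 0.28). Without STING KO replicate 2 alone the STING KO value was 0.0645, and without WT replicate 3 alone it was -0.0176 and the cGAS KO value 0.223.

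Rel (ENSMUSG00000020275, chromosome 11, 23736847 to 23770970, minus strand), which encodes c-Rel, the subunit best known from lymphoid and myeloid cells, was at 10.6, 17.1 and 7.88 CPM for STING KO, 6.21, 14.6 and 9.30 CPM for cGAS KO and 9.17, 8.97 and 17.1 CPM for WT. The highest value of each group was that of its low-complexity library, and the groups overlapped. The log2 fold change against WT was -0.23 for cGAS KO (SE 0.42) and 0.01 for STING KO (SE 0.41), and 0.24 in STING KO versus cGAS KO (SE 0.42). Each of these turned when 1 library was left out, with ranges of -0.587 to 0.139, -0.339 to 0.378 and -0.114 to 0.603.

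Among the inhibitors, Nfkbiz was the one whose WT libraries overlapped neither knockout, though no test was passed. The gene (ENSMUSG00000035356, chromosome 16, 55811375 to 55838899, minus strand) encodes IkBzeta, a nuclear protein that binds p50 and helps to induce a second wave of genes. It was at 7.54, 8.16 and 8.14 CPM for WT, 6.56, 6.04 and 5.11 CPM for cGAS KO and 7.15, 2.79 and 7.49 CPM for STING KO. All 6 knockout libraries were below the lowest WT library, but STING KO replicate 3 by only a small margin, and both comparisons rest on the same WT libraries. Against WT, the log2 fold change was -0.43 for cGAS KO (SE 0.36, 95% interval -1.24 to 0.38, edgeR unadjusted p = 0.263) and -0.45 for STING KO (SE 0.36, 95% interval -1.25 to 0.36, edgeR unadjusted p = 0.242). Without the libraries of low complexity it was -0.43 for cGAS KO (SE 0.23, unadjusted p = 0.0991) and -0.10 for STING KO (SE 0.23), and without STING KO replicate 2 alone the latter was -0.11. In STING KO versus cGAS KO it was -0.02 (SE 0.36) over 9 libraries and 0.32 (SE 0.23) over 6.

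Nfkbia (ENSMUSG00000021025, chromosome 12, 55489410 to 55492647, minus strand) encodes IkBalpha, the main cytoplasmic inhibitor and the classic early feedback target. Its level was 24.2, 32.5 and 27.4 CPM for STING KO, 26.3, 36.4 and 19.5 CPM for cGAS KO and 22.9, 24.2 and 21.2 CPM for WT. The WT libraries spread least, with an SD of 1.53 CPM against 8.51 for cGAS KO and 4.18 for STING KO, and the groups overlapped. The log2 fold change against WT was 0.27 for cGAS KO (SE 0.24, 95% interval -0.28 to 0.81) and 0.30 for STING KO (SE 0.24, 95% interval -0.24 to 0.84). Without the libraries of low complexity it was -0.04 (SE 0.18) and 0.13 (SE 0.18). The cGAS KO value was 0.0147 without cGAS KO replicate 2 and 0.463 without cGAS KO replicate 3, and the STING KO value was 0.185 without STING KO replicate 2.

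Tnfaip3 (ENSMUSG00000019850, chromosome 10, 19000910 to 19015657, minus strand) encodes A20, the enzyme that takes apart ubiquitin chains upstream of the IkB kinase. It was at 5.87, 7.30 and 5.45 CPM for WT, 5.74, 3.55 and 6.03 CPM for cGAS KO and 6.03, 3.35 and 7.38 CPM for STING KO. The groups overlapped, with log2 fold changes against WT of -0.28 for cGAS KO (SE 0.36) and -0.15 for STING KO (SE 0.36). The STING KO value turned to 0.115 without STING KO replicate 2 and to 0.0275 without the libraries of low complexity, and the cGAS KO value was -0.0706 without cGAS KO replicate 2. Without WT replicate 2 the values were -0.157 for cGAS KO and -0.0195 for STING KO.

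Nfkbib (ENSMUSG00000030595, chromosome 7, 28758251 to 28767512, minus strand) encodes IkBbeta, a slower cytoplasmic inhibitor. It was at 13.1, 12.7 and 7.43 CPM for WT, 16.4, 9.74 and 13.2 CPM for cGAS KO and 15.3, 5.37 and 16.2 CPM for STING KO, with log2 fold changes against WT of 0.25 for cGAS KO and 0.15 for STING KO (both SE 0.42). Leaving out 1 library moved the cGAS KO value to between 0.028 (without WT replicate 3) and 0.424 (without cGAS KO replicate 2), and the STING KO value to between -0.0949 (without STING KO replicate 3) and 0.512 (without STING KO replicate 2). The groups overlapped, and the lowest value of each was that of its low-complexity library. Nfkbib shares 42 exon bases with the oppositely oriented gene Sirt2, which was at 155 CPM on average.

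Nfkbie (ENSMUSG00000023947, chromosome 17, 45555703 to 45563169, plus strand) encodes IkBepsilon. It was at 1.37, 1.95 and 1.62 CPM for STING KO, 1.10, 1.81 and 0.852 CPM for cGAS KO and 1.63, 0.698 and 0.425 CPM for WT, and the groups overlapped. Its log2 fold change for STING KO versus WT was 0.82, the largest of the 10, but with an SE of 0.60 and a 95% interval of -0.51 to 2.16 (edgeR unadjusted p = 0.199), and it was 0.35 (SE 0.48) without the libraries of low complexity. Single WT libraries moved it most: it was 1.53 without WT replicate 1 (edgeR unadjusted p = 0.0468, adjusted p = 0.984) and 0.49 without WT replicate 3. For cGAS KO versus WT it was 0.43 (SE 0.60), with 1.14 and 0.0974 without the same libraries and 0.0808 without cGAS KO replicate 2.

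**Figure D3:**
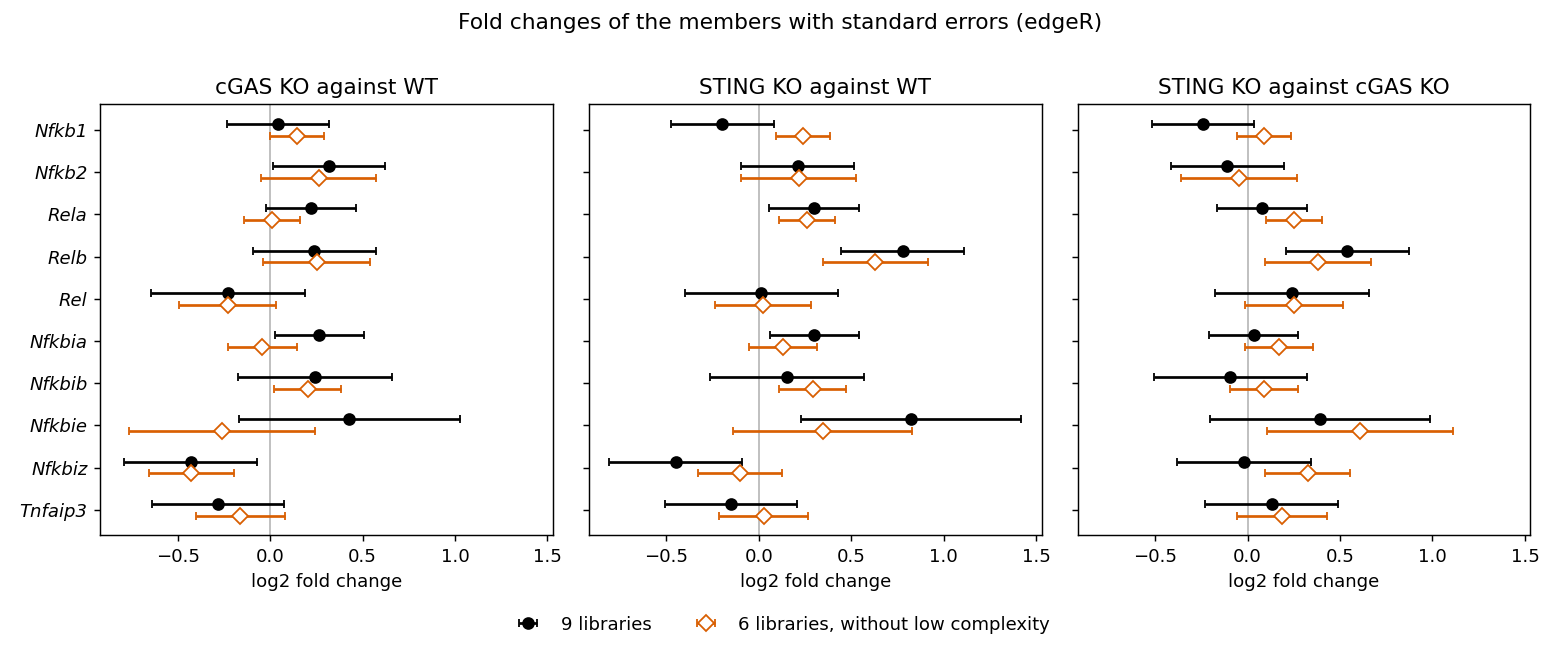
Log2 fold change of each gene with its standard error (edgeR) in the 3 comparisons, from the fit of 9 libraries (filled circles) and from the 6 without low complexity (open diamonds). Relb in STING KO versus WT lies farthest from 0 in units of its error (0.78, SE 0.33), and Nfkb1 in STING KO versus WT changes side between the fits (-0.20 and 0.24).

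Rel, Nfkbib and Tnfaip3 separated the libraries of low complexity from the other 6, whatever the genotype. In the 3 libraries of low complexity, Rel was at 14.6 to 17.1 CPM against 6.21 to 10.6 CPM in the other 6, a ratio of means of 1.87. Nfkbib was at 5.37 to 9.74 CPM against 12.7 to 16.4 CPM (ratio 0.519), and Tnfaip3 at 3.35 to 5.45 CPM against 5.74 to 7.38 CPM (ratio 0.644). Thus 1 of the 10 genes was above and 2 were below all 6 other libraries, where 14.3% and 16.5% of all genes tested were, so the share is near that of all genes. The ratio of Nfkbia to Rela per kilobase was 2.52, 2.86 and 2.47 in the low-complexity libraries of cGAS KO, STING KO and WT, and 1.41 to 1.85 in the other 6. The ratio of Nfkbia to Nfkbib was 5.03, 8.15 and 3.84 in the same 3 libraries and 1.98 to 2.57 in the other 6. Within the other 6 libraries, of which each genotype has 2, the ratio of Nfkbia to Rela was 1.63 and 1.76 for WT, 1.58 and 1.52 for STING KO and 1.85 and 1.41 for cGAS KO. The ratio of Nfkbia to Nfkbib was 2.36 and 2.57 for WT, 2.13 and 2.28 for STING KO and 2.16 and 1.98 for cGAS KO. In this ratio WT lay above both knockouts among these 6, but below both among the low-complexity libraries. No test was made. For single genes, such groups of 2 did not overlap for 29.4% of all genes in cGAS KO versus WT and 47.7% in STING KO versus WT. What sets the low-complexity libraries apart was not tested.

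Among pairs of the 10 genes, the Pearson correlation of log2(CPM + 1) over the 9 libraries was largest in size for Rel with Nfkbib, at -0.905, and it was -0.541 over the 6 libraries without low complexity. Over all 11426 protein-coding genes with a mean of at least 5 CPM, those most like Relb were Plekhg4 (r = 0.964), Tcirg1 (0.964) and Shkbp1 (0.963), and over the 6 libraries these values were 0.988, 0.968 and 0.917. The genes most like Nfkbiz were Txnl1 (0.963), Tigar (0.960) and Tceal1 (0.952), with 0.752, 0.863 and 0.846 over the 6. Those most like Rela were Cntfr (0.973), Rnh1 (0.967) and Pwp1 (0.962), with 0.840, 0.880 and 0.802 over the 6. Nfkb1 was matched by Nuak1 (0.976), Dcst1 (0.971) and Slc39a6 (0.968), which were 0.931, 0.549 and 0.811 over the 6. Nfkb2 was matched by Lmf2 (0.955), Ctnnbl1 (0.922) and Adck2 (0.922), with 0.941, 0.972 and 0.945 over the 6, and Rel by Gpr89 (0.970), Dgki (0.966) and Mcph1 (0.962), with 0.818, 0.814 and 0.814. Nfkbib had the closest matches, Mrpl12 (0.991), Gpr137 (0.990) and Cactin (0.990), which were 0.858, 0.834 and 0.924 over the 6 libraries. Nfkbie was matched by Fam222a (0.948), Pgap3 (0.940) and Adamtsl5 (0.923), with 0.986, 0.867 and 0.812 over the 6, and Tnfaip3 by Rnf182 (0.962), Tspyl4 (0.958) and Etv5 (0.954), with 0.891, 0.738 and 0.510. Nfkbia had the loosest matches, Lyrm7 (0.885), Pnrc1 (0.881) and Rpap1 (0.871), which were 0.279, 0.421 and 0.673 over the 6 libraries. These are the highest of many values over 9 points that share the split in complexity, and they are given as a description.

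Many of the classic inducible products of NF-kB were at or near 0 in these libraries. Of 96 other pathway genes, 70 passed the filter on low counts, and of the 30 target genes 15 did. Tnf, the cytokine that both activates and is induced by NF-kB, had 0 counts in every library, as did Cd40lg and the targets Ccl20, Cxcl2, Csf2 and Saa3, which allows up to 0.141 to 0.212 counts per 1000000. Summed over the 9 libraries, Il1b had 21 counts, Cxcl10 had 13, Il6 had 4, Cxcl1 had 2 and Ccl2 had 1. These genes were low in all 3 genotypes, so no comparison between the genotypes could be made for them at this depth.

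Of the 70 pathway genes tested, edgeR called 0 in each of the 3 comparisons. At an unadjusted p under 0.05 there was 1 of 70 in cGAS KO versus WT, 3 of 70 in STING KO versus WT and 2 of 70 in STING KO versus cGAS KO, beside 2.03%, 1.63% and 1.45% of all genes tested. Groups did not overlap for 2 higher and 5 lower of the 70 in cGAS KO versus WT (8.0% of all genes). For STING KO versus WT these counts were 6 and 2 (7.07%), and for STING KO versus cGAS KO 5 and 5 (7.35%). Counts this small are not a result about the pathway genes. The median log2 fold change was -0.07, -0.15, 0.05 and 0.04 for inputs, kinases and adaptors, other inhibitors and target genes in cGAS KO versus WT, and -0.16, -0.05, -0.03 and 0.25 in STING KO versus WT. In STING KO versus cGAS KO the medians were -0.02, 0.07, -0.16 and -0.01. Each of these list medians lies within 0.25 of 0 on the log2 scale.

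**Figure D4:**
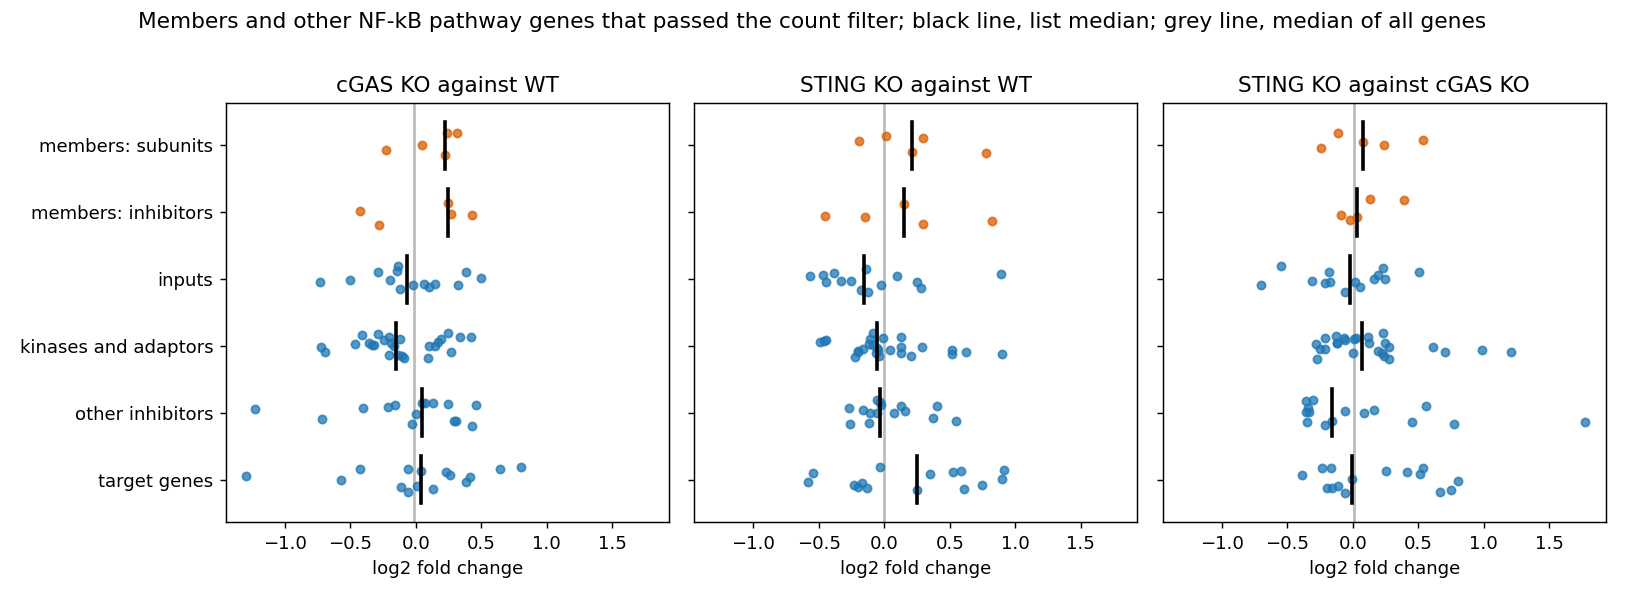
Log2 fold change (edgeR, 9 libraries) of the 10 genes (orange) and of the 70 other pathway genes that passed the count filter (blue), in the 3 comparisons; black lines are list medians and the grey line is the median of all genes tested. The medians of target genes are 0.04, 0.25 and -0.01 from left to right.

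Among the inputs, Il33, an alarmin cytokine released by damaged glia, was at 38.2, 51.3 and 57.6 CPM for STING KO and 26.0, 34.2 and 19.2 CPM for WT. The groups did not overlap, where 7.07% of all genes tested did not, and the lowest WT value was that of the low-complexity library. The log2 fold change of Il33 was 0.89 in STING KO versus WT (SE 0.26, edgeR unadjusted p = 0.00716, adjusted p = 0.9999) and 0.38 in cGAS KO versus WT (SE 0.26). Il1rap, the shared co-receptor of the IL-1 family, was at 47.2 ± 20.6 CPM for STING KO, 49.1 ± 15.9 for cGAS KO and 53.3 ± 13.6 for WT (SD, n = 3). Il1r1, the IL-1 receptor, was at 4.97 ± 0.42 CPM for cGAS KO and 7.05 ± 1.98 CPM for WT.

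Among kinases and adaptors, Map3k14 encodes NIK, the kinase that starts the non-canonical branch in which Relb acts. It was at 10.01, 5.79 and 8.61 CPM for STING KO, 5.69, 1.59 and 3.21 CPM for cGAS KO and 5.60, 5.10 and 6.37 CPM for WT. For Map3k14 the log2 fold change was 1.21 in STING KO versus cGAS KO (SE 0.44, edgeR unadjusted p = 0.0202, adjusted p = 1) and 0.52 against WT (SE 0.43). All 3 STING KO libraries were above the cGAS KO libraries, and they overlapped WT. The lowest of them, at 5.79 CPM, was barely above the highest cGAS KO library, at 5.69 CPM. For STING KO and cGAS KO the lowest value was that of the low-complexity library. In STING KO versus cGAS KO, 7.35% of all genes tested did not overlap. Rnf31, a catalytic subunit of the linear ubiquitin ligase, was at 45.3 ± 10.9 CPM for STING KO and 31.7 ± 1.39 for WT (edgeR unadjusted p = 0.0250). Its STING KO libraries were at 37.2, 57.8 and 41.0 CPM, the highest being the one of low complexity. Birc2, a ubiquitin ligase that holds NIK low, was at 36.8 ± 2.20 CPM for cGAS KO, 37.5 ± 2.76 for STING KO and 50.9 ± 11.8 for WT. Against WT the edgeR unadjusted p for Birc2 was 0.0348 for cGAS KO and 0.0432 for STING KO. Its WT libraries were at 42.45, 45.91 and 64.31 CPM, the highest being the one of low complexity. The members of this list with the most counts were Rbck1, at 152 ± 16.2 CPM for cGAS KO, 139 ± 30.5 for STING KO and 113 ± 20.1 for WT, and Ube2n, at 115 ± 16.4, 116 ± 5.69 and 133 ± 6.44 CPM.

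Of the other inhibitors, Cyld, a deubiquitinase of the pathway, had the most counts, at 559 ± 136 CPM for cGAS KO, 444 ± 123 for STING KO and 452 ± 27.6 for WT. Rnf11, a partner of A20, was at 175 ± 3.54, 168 ± 19.6 and 175 ± 30.1 CPM. Zc3h12a, an endonuclease that degrades inflammatory transcripts, was at 1.57 ± 0.36 CPM for STING KO, 0.443 ± 0.44 for cGAS KO and 1.07 ± 0.19 for WT. Zc3h12a had only 157 counts summed over the 9 libraries, with 0 in cGAS KO replicate 2, a library of low complexity. Irak3, an inhibitor of Toll-like receptor signalling, was at 1.21 ± 0.09 CPM for cGAS KO and 1.98 ± 0.52 for WT, and Tnip2, an A20-binding protein, was at 14.7 ± 0.87 CPM for STING KO and 11.2 ± 1.61 for WT. None of these passed over all genes tested.

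Of the target genes, Sod2 and Bcl2l1 had the most counts. Sod2, the mitochondrial superoxide dismutase, was at 206 ± 36.3 CPM for cGAS KO, 184 ± 37.9 for STING KO and 188 ± 32.5 for WT, and the survival gene Bcl2l1 was at 95.3 ± 7.09, 72.7 ± 23.2 and 79.6 ± 26.8 CPM. Gadd45b, a stress gene, was at 10.2, 4.25 and 10.1 CPM for STING KO, 9.28, 4.68 and 2.95 CPM for cGAS KO and 4.43, 6.28 and 2.26 CPM for WT, with a log2 fold change for STING KO versus WT of 0.92 (SE 0.53, edgeR unadjusted p = 0.118). Csf1, the growth factor of microglia, was at 20.4 ± 2.45 CPM for cGAS KO and 15.3 ± 3.50 for WT. The libraries overlapped for each of these 4 genes in both comparisons with WT. In STING KO versus cGAS KO those of Bcl2l1 did not, by a small margin: the highest STING KO library was at 86.6 CPM and the lowest cGAS KO library at 87.4. In that comparison 7.35% of all genes tested did not overlap.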

How the data were processed

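Total RNA was extracted with Trizol and polyadenylated RNA was sequenced as paired reads on an Illumina instrument, per the labels' protocols. HISAT2, featureCounts and mm10 are named in the submitters' processing notes; the sources used here do not give versions, annotation, strand setting or treatment of multi-mapping reads. Each deposited file lists counts by Ensembl gene ID as whole numbers whose totals differ between libraries, and no scaling by the authors is visible in them. Of 54532 IDs, 54495 matched GENCODE M21 (GRCm38), and the rest held at most 0.0361% of a library.

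Counts were tested with edgeR 4.0.16 (quasi-likelihood F test, TMM factors, filterByExpr, 9 libraries in 1 fit, Benjamini-Hochberg over 17821 genes, threshold 0.05) in R 4.3.3. CPM are TMM-normalized, and per-kilobase levels divide them by the union of exons. Standard errors come from the fold change and F statistic. Alternatives were DESeq2 1.42.0, limma-voom (limma 3.58.1), other scalings, no filter, 6 libraries, the replicate block and leaving out each library. The fits without the low-complexity libraries, with low complexity as a covariate and with library quality weights were added with the data known. Members and lists were chosen with earlier results of these data known. All 10 members are named, as are, per pathway list, the 2 genes with the highest mean CPM and that with the smallest p in each comparison, and per member the 3 most correlated protein-coding genes. By a chi-square test on counts, every pair of libraries within a group differed by more than sampling noise.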

Additional observations from a re-analysis of the deposited data

How the results depend on the processing

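Of the 10 genes, 0 were called in each comparison under all 19 alternatives. Of the 570 fold changes so recomputed, 528 kept the direction given in the report and 42 did not, and 14 of the 30 fold changes never turned. The largest that turned was 0.43 on the log2 scale. The cause of the turns was not tested. Without the 3 libraries of low complexity, the following had the other sign: in cGAS KO against WT Nfkbia (-0.0412) and Nfkbie (-0.26), in STING KO against WT Nfkb1 (0.237) and Tnfaip3 (0.0275), and in STING KO against cGAS KO Nfkb1 (0.0903), Nfkbib (0.0881) and Nfkbiz (0.324). With library quality weights in limma-voom they were Rel (0.0148) and Nfkbia (-0.139), then Nfkb1 (0.196) and Rel (-0.0367), then Nfkb1 (0.0433), Rel (-0.0516), Nfkbib (0.231) and Nfkbiz (0.419). To ask about pairing, each gene's group mean was subtracted from log2(CPM + 1), and these deviations were correlated between libraries of different groups. Deviations sum to 0 within a group, so some negative values are built in, and they do not describe whole expression profiles. Correlations of the deviations of same-numbered libraries ran from -0.573 to 0.61, and those between libraries largely followed the split in complexity. Whether the replicate numbers pair the samples could therefore not be told. With the number as a replicate block 0 genes were called in each comparison, and Rel for STING KO versus WT was -0.0248. Leaving out each library in turn, the fold changes that turned ranged, for cGAS KO versus WT, from -0.0449 to 0.223 (Nfkb1), -0.00293 to 0.449 (Relb) and -0.587 to 0.139 (Rel). For STING KO versus WT the ranges were -0.34 to 0.0645 (Nfkb1), -0.339 to 0.378 (Rel), -0.0949 to 0.512 (Nfkbib) and -0.401 to 0.115 (Tnfaip3). For STING KO versus cGAS KO they were -0.391 to 0.0163 (Nfkb1), -0.0876 to 0.241 (Rela), -0.114 to 0.603 (Rel), -0.161 to 0.287 (Nfkbia), -0.344 to 0.265 (Nfkbib), -0.246 to 0.313 (Nfkbiz) and -0.125 to 0.393 (Tnfaip3). Over all genes tested, edgeR called 0 in each comparison. In cGAS KO versus WT, DESeq2 called 1 gene and library quality weights 4. In STING KO versus WT, 4 genes were called with no count filter, 10 by DESeq2, 4 without the low-complexity libraries, 1 with low complexity as a covariate and 178 with library quality weights. In STING KO versus cGAS KO the counts were 4, 8, 3, 1 and 29 in the same order. With 3 libraries a group and a biological coefficient of variation of 38.8%, modest differences in transcripts of a few CPM cannot be resolved; Nfkbie, with 6 to 36 counts a library, is the least certain of the 10.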
